A study of Homo sapiens with 62 samples.

Results

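The genes followed here were 10 members of the Krüppel-like factor family, KLF2, KLF3, KLF4, KLF5, KLF6, KLF7, KLF9, KLF10, KLF11 and KLF13, taken by gene name from tables of 29794 genes. The tables came from SLAM-seq of AsPC-1 and T3M-4, established human lines of pancreatic ductal adenocarcinoma that model its classical and its basal-like subtype. In SLAM-seq, cells are fed 4-thiouridine shortly before harvest, and a read of an RNA that was transcribed in that window shows T>C conversions. For each gene the T>C reads therefore measured new RNA, all reads measured new and old RNA together, and their ratio is called the labelled share.

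There were 62 libraries in 12 groups. In every group, controls included, the cells carried Cas9 and guides against the endogenous KLF5 locus, and lived on a lentiviral KLF5 cDNA fused to FLAG and the FKBP12 F36V degron tag. The dTAG group received the degrader dTAGv-1 for 4 h, and the NEG group received the inactive analogue dTAGv-1-NEG for 4 h, with 10 libraries each in AsPC-1 and 4 each in T3M-4. CB-6644, which inhibits the ATPase activity of RUVBL1/2, was compared with the solvent DMSO after 4 h in AsPC-1 (5 and 5 libraries) and T3M-4 (4 and 4), and after 12 h in AsPC-1 (4 and 4). NVP-2, an inhibitor of the elongation kinase CDK9, was given for 4 h (4 libraries in each line) and was set against the same DMSO 4 h libraries, so the CB-6644 and NVP-2 comparisons at 4 h share their controls. The replicate labels name 3 experiments for the AsPC-1 dTAG and NEG libraries and 2 for each 4 h group of T3M-4. Libraries of 1 experiment may be technical repeats, in which case a p-value over libraries measures in part technical spread.

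T>C reads per library numbered 8296433 to 18311982 in AsPC-1 and 13562612 to 27982537 in T3M-4 outside the NVP-2 groups, whose libraries held at most 3517345 and 4982006. Levels are given in CPM, which scales a count to the size of its library. All 5 epithelial markers on the list passed 1 CPM in both lines. All 7 basal-like markers passed it in T3M-4 against 1 of 7 in AsPC-1, and 5 of 7 classical markers passed it in AsPC-1 against 3 of 7 in T3M-4. AsPC-1 libraries were also clustered by their overall expression and cut into 3 sets, a number fixed beforehand. The median all-reads level of KLF5 over control libraries was 23.4, 26.9 and 36.7 CPM in these sets, that of KLF4 9.09, 4.86 and 10.9 CPM. The third set held the experiment 2 libraries of CB-6644, DMSO, dTAG and NEG and no NVP-2 library. CB-6644 and DMSO 4 h library 1.2 were in different sets, so neither 4 h drug comparison in AsPC-1 was balanced over the sets. All AsPC-1 NVP-2 libraries belonged to the second labelled batch and their DMSO libraries to the first, so batch and drug cannot be told apart in that comparison. With NVP-2, T>C reads made up on average 1.57% of all reads in AsPC-1 (DMSO 10.1%) and 2.24% in T3M-4 (DMSO 12.4%). This percentage is a ratio within a library, so it does not scale with the number of cells. Whether cell number or the total RNA of a cell changed was not tested.

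KLF proteins bind GC-rich and CACCC elements through 3 C-terminal zinc fingers, and they differ mainly in the regions outside the fingers, which recruit activators or repressors. KLF5 is an activator in proliferating epithelial cells, and KLF4 marks differentiating epithelium and is one of the reprogramming factors. KLF3 recruits the corepressor CTBP to repress CACCC-containing promoters, and genes for other KLF proteins are among its known targets. KLF10 and KLF11 are induced by TGF-beta and recruit the corepressor SIN3A, KLF2 and KLF6 are immediate-early type genes, and KLF9 is a target of the glucocorticoid receptor. Many KLF mRNAs are short-lived, and AU-rich elements in the 3′ untranslated region (3′UTR) are a common mark of such mRNAs.

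Reads were counted only in 3′UTR exons, so the annotated 3′UTR is where each value below comes from (GENCODE release 44, hg38). KLF5 (ENSG00000102554.14) lies on chromosome 13 at 73054976 to 73077541, plus strand, and its 3′UTR of 1655 bases is in its last exon. KLF3 (ENSG00000109787.13) lies on chromosome 4 at 38664197 to 38701517, plus strand, with a 3′UTR of 4257 bases. KLF4 (ENSG00000136826.15) lies on chromosome 9 at 107484852 to 107490482, minus strand, with a 3′UTR of 902 bases. The study's plasmid list names the tagged construct by its KLF5 5′UTR, the KLF5 cDNA and an IRES-neo cassette behind it, with no 3′UTR in the name, and the sequence of the construct was not used here. The KLF5 values therefore measure RNA with that 3′UTR and cannot show whether the tagged protein was degraded.

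The AU-rich heptamer TATTTAT (searched on the transcribed strand) occurred once in the 3′UTR of 6 of the 10 genes. KLF4, KLF9, KLF10 and KLF13 held none, although KLF10 had the highest labelled share of the members, described further on. How many of all genes hold it anywhere in the 3′UTR was not counted. Each copy is shown with 9 bases on either side, with the heptamer in capitals.
KLF2, chr19:16327103-16327127, plus strand: tgtgactggTATTTATtggacccag
KLF3, chr4:38701334-38701358, plus strand: tgtatttgtTATTTATgaacccctg
KLF5, chr13:73077179-73077203, plus strand: gtttatcttTATTTATtttgtggta
KLF6, chr10:3778343-3778367, minus strand: tgtttctctTATTTATgccttgagg
KLF7, chr2:207075431-207075455, minus strand: cttctctggTATTTATaatatatca
KLF11, chr2:10052882-10052906, plus strand: ttagaaaaaTATTTATattgttggt
In the last 500 bases of the 3′UTR, where 3′ end reads fall, 2 of the 10 genes (KLF3 and KLF5) held the heptamer, against 2273 of 13576 genes (16.7%). The pentamer ATTTA lay in that window of 8 of the 10 genes, all but KLF2 and KLF6, against 63.9% of genes. A match of these letters is a description and not a site shown to act.

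Of the 10 genes, 8 passed the filter on low counts in the 7 treatment comparisons of T>C reads, KLF9 passed it in the 3 T3M-4 comparisons, and KLF13 in none. KLF13 had 0 to 102 reads in all per library, and KLF9 had at most 42 in any AsPC-1 library. Every KLF4 and KLF10 count was a multiple of 2 and every KLF11 count a multiple of 3, so their counting error is larger than the printed counts imply. The 3′UTR of KLF11 is also overlapped on the other strand by ENSG00000271787.

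The 2 lines were set side by side in their DMSO 4 h libraries. New RNA of 6 of the 9 members tested differed between them, 5 of these being higher in T3M-4, against 48.4% of all genes tested (edgeR quasi-likelihood test, Benjamini-Hochberg adjusted p under 0.05, as for all calls on counts below). KLF5 had 562, 477, 532 and 563 T>C CPM in the 4 T3M-4 libraries and 70.2, 77.8, 112, 204 and 160 T>C CPM in the 5 AsPC-1 libraries. No library of either line lay within the range of the other, a separation upward in T3M-4 that 23.7% of genes showed. The log2 difference was 2.09 ± 0.30 (SE; adjusted p = 0.000167). The spread of KLF5 was itself wider in AsPC-1, where the libraries of the second experiment were above those of the first.

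KLF4 stood at 140, 150, 136 and 124 T>C CPM in T3M-4 and at 44.9, 37.6, 36.5, 87.6 and 60.3 T>C CPM in AsPC-1, a log2 difference of 1.36 ± 0.26 (adjusted p = 0.00108). KLF3, a corepressor-recruiting member, was at 40.6 to 47.1 T>C CPM in T3M-4 and at 22.0 to 35.4 T>C CPM in AsPC-1 (log2 difference 0.64 ± 0.19, adjusted p = 0.0162). Neither gene overlapped between the lines, and 23.7% of genes were separated in this direction. KLF10 was also called higher in T3M-4 (0.86 ± 0.25, adjusted p = 0.0159), but its 4 values split by experiment, 144 and 174 T>C CPM in the first and 334 and 329 T>C CPM in the second, while AsPC-1 lay at 122 to 154 T>C CPM.

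KLF9 was the member nearest to absent in 1 line. AsPC-1 DMSO libraries held 0, 3, 0, 3 and 0 T>C reads of KLF9 and T3M-4 libraries 139, 94, 71 and 101, so the AsPC-1 rate was 2.12% of the T3M-4 rate (95% exact counting interval 0.774% to 4.66%, which covers counting error only). KLF6, in contrast, was lower in T3M-4 (303 ± 26.7 against 506 ± 202 T>C CPM, SD, n = 4 and 5), with a log2 difference of −0.74 ± 0.26 (adjusted p = 0.0326) and ranges that touched, 265 to 323 against 319 to 838 T>C CPM. When NEG libraries replaced DMSO libraries, the KLF6 difference in new RNA was −0.32 and was no longer called (adjusted p = 0.105), and KLF11 became called (−1.12, adjusted p = 4.16e-05). In the DMSO libraries KLF11 had a log2 difference of −0.72 (adjusted p = 0.0592), KLF2 of −0.99 (0.121) and KLF7 of −0.11 (0.625).

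In all reads, where 55.7% of genes tested differed between the lines, 8 of the 10 genes were called. KLF5 was at 134 ± 8.0 CPM in T3M-4 and 29.9 ± 12.6 CPM in AsPC-1, and KLF6 at 50.8 ± 12.1 and 108 ± 29.1 CPM, now without overlap. In all reads 21.3% of genes were separated downward in T3M-4 and 26.8% upward. KLF11 (−0.84 ± 0.30, adjusted p = 0.0363) and the sparsely counted KLF13 (1.96 ± 0.76, adjusted p = 0.0487) joined the 6 called in T>C reads. When each library was left out in turn, 4 to 7 members were called in T>C reads, and the same range held in all reads.

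**Figure D1:**
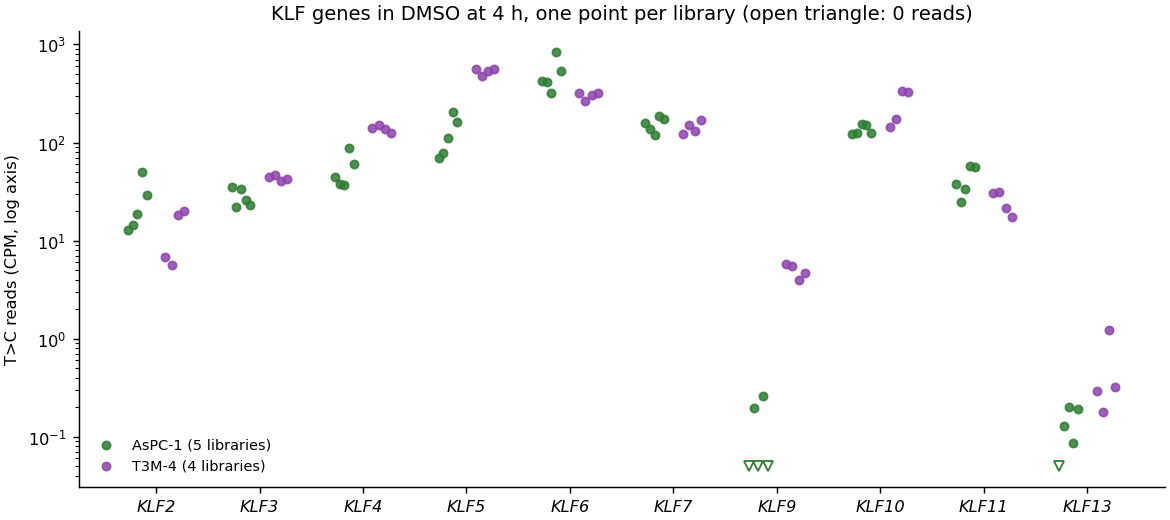
T>C CPM of each KLF gene (log axis) in the DMSO 4 h libraries of AsPC-1 and T3M-4, 1 point per library, with open triangles for libraries holding 0 T>C reads. KLF5 lies at 477 to 563 in T3M-4 and 70.2 to 204 in AsPC-1, KLF6 is the gene called lower in T3M-4, and KLF9 has T>C reads in 2 of 5 AsPC-1 libraries.

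The labelled share of these genes was far above that of the typical gene in both lines. In DMSO libraries the median gene had a share of 15.4% in AsPC-1 and 17.6% in T3M-4. KLF10 had the highest share of the members, 62.9% ± 1.92 (SD, n = 5) in AsPC-1 and 85.4% ± 0.884 (n = 4) in T3M-4, at the 99.8th and 99.9th percentile of genes. KLF2 followed in AsPC-1 at 60.3% ± 5.89 and KLF6 in T3M-4 at 71.3% ± 8.43. KLF5 was at the low end of the family, 43.2% ± 4.18 and 46.7% ± 4.15, close to KLF3 (43.3% and 53.3%) and KLF7 (44.3% and 52.7%). Every member with enough reads for a share lay above the 90th percentile of genes in both lines. The order within a line is a description, and neighbours such as KLF5, KLF3 and KLF7 differed by less than their spread over libraries.

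The dTAG against NEG comparison asks which genes change within hours of KLF5 degradation, and KLF5, read by its 3′UTR, was among those called. In AsPC-1, 1 of the 8 members tested was called, against 2.4% of 11696 genes (0.462% higher), and it was KLF5. The blocked fit, which compares libraries of the same replicate number, called 757 genes in place of 281. Its T>C level had a lowest value of 132, a median of 159 and a highest of 196 CPM over 10 dTAG libraries, and 69.6, 106 and 139 CPM over 10 NEG libraries. Of the dTAG libraries, 8 were above every NEG library, and the other two, 132 and 138 CPM, lay below only the highest NEG library (139 CPM). The log2 fold change was 0.60 ± 0.11 (adjusted p = 0.00284) and was positive in each experiment, 0.70, 0.28 and 0.68. All reads, in which 0.797% of genes were called, gave 0.56 ± 0.10 (adjusted p = 0.00617). Batch 1 alone (experiments 1 and 2) called it (0.54, adjusted p = 0.0434), and batch 2 alone did not (0.66, adjusted p = 0.328). Without the 4 pairs of libraries of experiment 1 the fold change was 0.52 and the call was lost (adjusted p = 0.342), as it was when libraries were summed per experiment (0.53, adjusted p = 0.587). Those sums called 0 of 13499 genes. Of 12 other settings of the fit, 9 called KLF5, and the fold changes of all 12 were 0.36 to 0.66.

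KLF10, KLF3 and KLF4 each differed at an unadjusted p under 0.05 in AsPC-1 but were not called over all genes. KLF10 had 56.9, 69.3 and 153 T>C CPM (lowest, median, highest) in dTAG libraries and 68.8, 112 and 125 T>C CPM in NEG libraries, with a log2 fold change of −0.41 ± 0.17 (adjusted p = 0.295). The values of 5 dTAG libraries lay below every NEG library, while dTAG library 1.1, at 153 CPM, lay above them all. The blocked fit called it (−0.42, adjusted p = 0.0485). KLF3 had 15.7, 19.6 and 26.0 T>C CPM against 20.1, 24.3 and 34.3 T>C CPM, with 6 of 10 dTAG libraries below every NEG library and a log2 fold change of −0.32 ± 0.13 (adjusted p = 0.301). KLF4 had 27.9, 44.3 and 81.0 T>C CPM against 17, 36.5 and 46.4 T>C CPM (0.57 ± 0.23, adjusted p = 0.274), and its fold change was −0.12 in experiment 2 against 0.66 and 0.84 in the others. KLF6, KLF2, KLF11 and KLF7 had log2 fold changes of −0.01 to 0.21 (adjusted p of 0.771 or more).

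In T3M-4, 2 of the 9 members tested were called, KLF3 lower and KLF5 higher, against 0.834% of 13424 genes in either direction (0.745% lower, 0.0894% higher). With libraries paired by number 298 genes were called in place of 112. KLF3 was at 39.0, 31.9, 30.7 and 44.4 T>C CPM in NEG libraries 1.1, 1.2, 2.1 and 2.2 and at 11.7, 16.1, 9.84 and 11.2 T>C CPM in the dTAG libraries of the same numbers. Every dTAG library was below every NEG library, a separation that 3.81% of genes showed in this direction. The log2 fold change was −1.58 ± 0.23 (adjusted p = 0.0114), and it was −1.35 in experiment 1 and −1.84 in experiment 2. Within batch 1 it was −1.33 (adjusted p = 0.128) and within batch 2 −1.83 (adjusted p = 0.0493). It was called in 7 of 8 fits that left 1 library out, the exception being dTAG library 2.1 (−1.47, adjusted p = 0.0624). In all reads KLF3 was at 7.94 to 9.89 CPM in NEG and 3.47 to 4.85 CPM in dTAG libraries (−1.08 ± 0.18, adjusted p = 0.169), where only 0.0191% of genes were called at all.

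KLF5 in T3M-4 was at 634, 516, 584 and 562 T>C CPM in NEG libraries and at 1073, 1019, 996 and 1194 T>C CPM in dTAG libraries, again with no overlap (1.94% of genes separated upward). Its log2 fold change was 0.90 ± 0.15 (adjusted p = 0.0258), with 0.88 (adjusted p = 0.216) and 0.95 (adjusted p = 0.0411) in the 2 batches. That call was close to the threshold: none of the 8 fits without 1 library made it, with fold changes of 0.85 to 0.95 and adjusted p of 0.0533 to 0.1. Of 11 other settings of the fit, 8 called KLF5, and the fold changes of all 11 were 0.86 to 0.98. All reads, batch 1 alone and sums per experiment without a block did not call it, while the fits with a replicate block did. In all reads KLF5 was at 150 to 167 CPM in NEG and 267 to 289 CPM in dTAG libraries (0.86 ± 0.14, adjusted p = 0.133).

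KLF6 was higher in all 4 T3M-4 dTAG libraries (403 to 460 T>C CPM) than in any NEG library (276 to 352 T>C CPM), as were 1.94% of genes. It was not called (0.44 ± 0.16, adjusted p = 0.447). KLF2 was at 6.60, 7.33, 18.3 and 16.5 T>C CPM in NEG and 3.91, 3.58, 3.66 and 7.49 T>C CPM in dTAG libraries (−1.38 ± 0.42, adjusted p = 0.269), so the 2 NEG experiments differed by more than dTAG and NEG did within experiment 1. With experiment as a block KLF2 was called (−1.27, adjusted p = 0.045), but not with libraries paired by full number (−1.30, adjusted p = 0.0898) or summed per experiment with a block (−1.26, adjusted p = 0.0903). KLF10 was at 69.3 to 191 T>C CPM in dTAG and 172 to 263 T>C CPM in NEG libraries (−0.68 ± 0.29, adjusted p = 0.645), with the same sign as in AsPC-1. KLF9, KLF7, KLF4 and KLF11 had log2 fold changes of −0.49 to 0.13 and were not called.

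**Figure D2:**
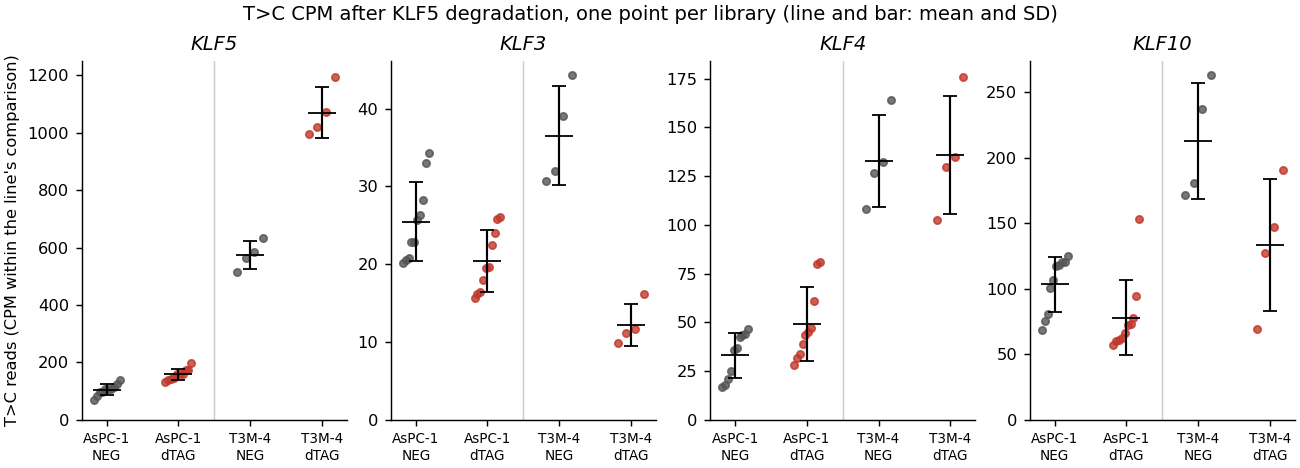
T>C CPM of KLF5, KLF3, KLF4 and KLF10 in each NEG and dTAG library of both lines, with the group mean and SD. KLF5 is higher under dTAG in both lines, KLF3 separates fully in T3M-4 (9.84 to 16.1 against 30.7 to 44.4), and 1 AsPC-1 dTAG library stands high for KLF10 at 153.

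The difference between the lines was tested directly. For KLF5 the dTAG effect was 0.32 ± 0.19 larger in T3M-4 on the log2 scale (adjusted p = 0.945), so the data do not separate its rise in the 2 lines. For KLF3 the effect was −1.23 ± 0.25 (adjusted p = 0.0635), past no threshold in the fit without pairing, while the blocked fit called it (−1.24, adjusted p = 0.0108). KLF2 differed by −1.53 ± 0.47 (adjusted p = 0.538). With edgeR 0 of 9 members passed in this test, 2 of them (KLF2 and KLF3) at an unadjusted p under 0.05, against 0.0426% of genes called.

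CB-6644 gave no member that passed the test in either line or at either time, and edgeR called 0% of genes in each of the 3 comparisons. Members with an unadjusted p under 0.05 were KLF10 and KLF7 in AsPC-1 and KLF3 in T3M-4 at 4 h, and KLF2, KLF3, KLF5 and KLF11 in AsPC-1 at 12 h, and DESeq2 called 0 members in all 3. In all reads edgeR called 0% of genes in AsPC-1 at either time and 0.0127% in T3M-4, with no member among them. Most members lay below their DMSO level all the same. In AsPC-1 at 4 h 7 of 8 tested had a log2 fold change below 0 (median −0.41, all genes −0.0054), against 50.8% of all genes. In T3M-4 9 of 9 were below 0 (median −0.20, all genes 0.0031), and at 12 h in AsPC-1 8 of 8 (median −0.52, all genes −0.010). All members were read in the same libraries, so these signs are not independent. In T3M-4 experiment 1 the log2 ratios of KLF3, KLF4, KLF7, KLF9, KLF10 and KLF11 were −0.73, −0.96, −0.71, −0.57, −0.58 and −0.90. In experiment 2 they were −0.19, 0.07, −0.06, 0.22, −0.05 and 0.05. KLF5 (−0.26 and −0.04) and KLF6 (−0.20 and −0.07) moved less, and KLF2 went from 0.33 to −0.22.

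KLF5 after 12 h was at 62.9, 66.0, 69.3 and 79.6 T>C CPM with CB-6644 and at 90.2, 92.1, 123 and 131 T>C CPM with DMSO, a log2 fold change of −0.65 ± 0.19 (adjusted p = 0.998). KLF11 was at 39.0, 18.1, 34.4 and 29.1 T>C CPM against 59.9, 43.2, 52.0 and 45.5 T>C CPM (−0.73 ± 0.25). All 4 CB-6644 libraries lay below all 4 controls for both genes, which 1.41% of genes did. KLF2 (−0.97), KLF3 (−0.57), KLF7 (−0.46), KLF6 (−0.32), KLF10 (−0.31) and KLF4 (−0.24) overlapped with their controls (adjusted p of 0.998 for each). After 4 h the KLF5 value was −0.10 ± 0.27 in AsPC-1 and −0.14 ± 0.18 in T3M-4, and the AsPC-1 experiments went opposite ways, 0.37 and −0.56.

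Experiment 2 carried most of the AsPC-1 values at 4 h. KLF2, KLF4, KLF6 and KLF10 had log2 ratios of −1.06, −1.02, −1.07 and −1.06 there, and of 0.18, 0.01, 0.08 and −0.23 in experiment 1. KLF3 (−0.22), KLF7 (−0.38) and KLF11 (0.25) were not called over both experiments (adjusted p of 0.979 for each). KLF10 in all reads was nevertheless below its controls in all 5 libraries, 19.5, 15.7, 15.7, 10.8 and 10.5 CPM against 19.8 to 26.2 CPM (−0.62 ± 0.18, adjusted p = 0.994), a separation shown by 0.18% of genes. In T3M-4 KLF3 was at 28.8, 27.1, 35.0 and 39.0 T>C CPM with CB-6644 and 41.2 to 48.5 T>C CPM with DMSO (−0.45 ± 0.18), and 1.59% of genes were separated in that direction. The other T3M-4 members, KLF2, KLF6, KLF9, KLF10, KLF7, KLF4 and KLF11, had log2 fold changes of −0.07 to −0.46 (adjusted p of 0.994 or more). Neither the test of the difference between the lines nor that between 12 h and 4 h called any member with edgeR, and KLF11 alone had an unadjusted p under 0.05 in each.

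**Figure D3:**
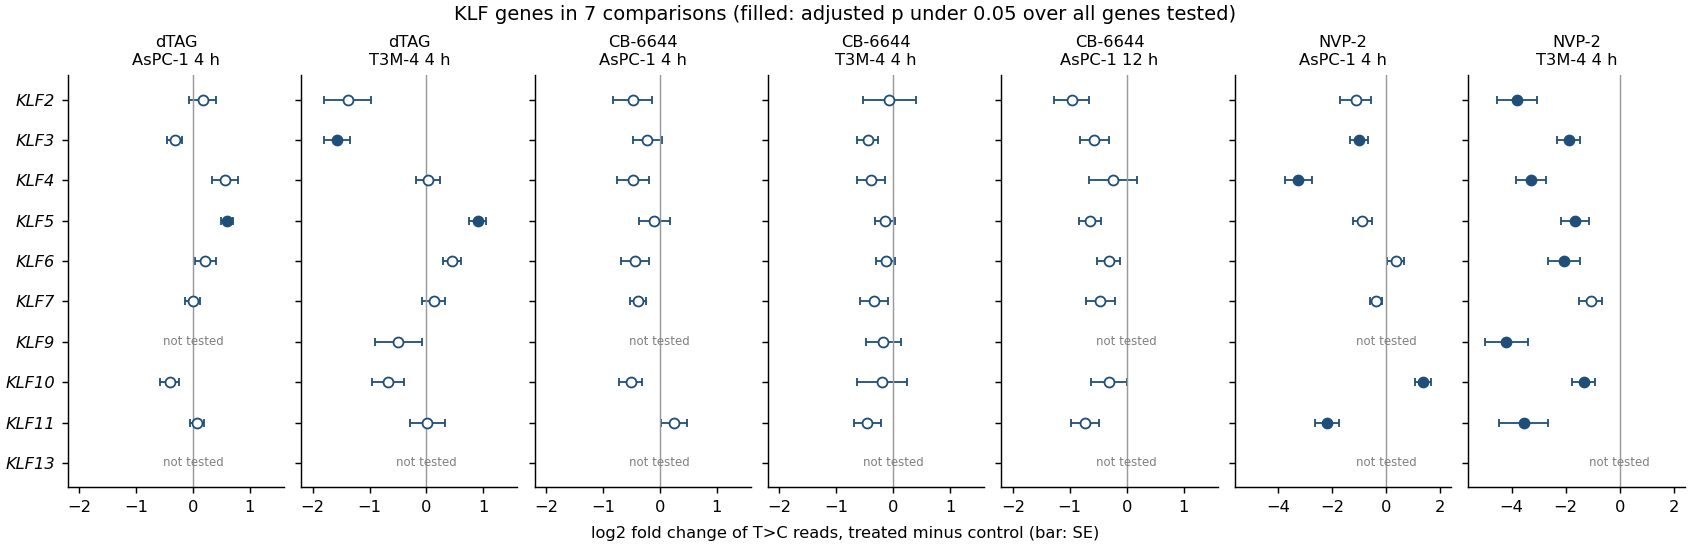
Log2 fold change in T>C CPM with its SE for each KLF gene in the 7 treatment comparisons, filled where called. Filled points are KLF5 in both dTAG panels, KLF3 in T3M-4 dTAG, none under CB-6644, and 4 and 8 genes under NVP-2.

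NVP-2 split the family in AsPC-1. Of the 8 members tested, 4 were called, KLF10 higher and KLF3, KLF4 and KLF11 lower, against 30.5% of 11498 genes (12.9% higher, 17.6% lower). These values are relative to the other T>C reads of a library, and the T>C total of NVP-2 libraries was at most 3517345. KLF10, a TGF-beta-induced gene (ENSG00000155090.15, chromosome 8 at 102648784 to 102655725, minus strand, 3′UTR of 1351 bases), was at 211, 144, 474 and 366 T>C CPM with NVP-2 and at 105, 108, 131, 129 and 108 T>C CPM with DMSO. All 4 treated libraries were above every control, as they were for 10.2% of genes, and the log2 fold change was 1.36 ± 0.31 (adjusted p = 0.00641). With NEG experiment 3 or DMSO 12 h libraries of the same batch as controls it was 1.82 and 1.94 and stayed called.

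KLF4 had the lowest fold change of the called members in AsPC-1. It was at 6.80, 1.65, 8.13 and 2.21 T>C CPM with NVP-2 and at 38.8, 32.2, 31.1, 75.0 and 52.1 T>C CPM with DMSO (−3.26 ± 0.50, adjusted p = 0.00077). KLF11 was at 4.53, 4.95, 6.09 and 16.5 T>C CPM against 20.9 to 49.3 T>C CPM (−2.19 ± 0.45, adjusted p = 0.0039). KLF3 was at 18.1, 11.5, 7.72 and 9.92 T>C CPM against 18.8 to 30.7 T>C CPM (−1.02 ± 0.33, adjusted p = 0.0338), and its call was lost with the batch-matched controls (adjusted p = 0.0737 and 0.128) and in 7 of 9 fits without 1 library. For all 3 genes every NVP-2 library was below every control, which held for 18.2% of genes.

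KLF5 in AsPC-1 was at 48.0, 66.8, 43.9 and 73.9 T>C CPM with NVP-2 and at 60.7, 66.6, 95.7, 175 and 139 T>C CPM with DMSO, with overlap and no call (−0.89 ± 0.34, adjusted p = 0.0678). KLF2 was not called either (−1.13, adjusted p = 0.149), nor were KLF7 (−0.37, adjusted p = 0.235) and KLF6 (0.35, adjusted p = 0.423), whose NVP-2 libraries ran from 328 to 748 T>C CPM and its controls from 272 to 718 T>C CPM.

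In T3M-4, 8 of the 9 members tested were called lower with NVP-2 and none higher, against 26.7% of 12242 genes in either direction (14.2% lower, 12.4% higher). Leaving out 1 library gave 5 to 8 members called, with 5 without DMSO library 2.1 or 2.2. KLF5 was at 238, 212, 39.5 and 59.0 T>C CPM with NVP-2 and at 444, 379, 438 and 462 T>C CPM with DMSO (−1.65 ± 0.52, adjusted p = 0.0375). KLF6 was at 110, 84.7, 30.2 and 9.84 T>C CPM against 211 to 265 T>C CPM (−2.05 ± 0.58, adjusted p = 0.0248). KLF4 was at 24.7, 11.2, 2.68 and 6.81 T>C CPM against 102 to 119 T>C CPM (−3.27 ± 0.55, adjusted p = 0.00213). All 3 genes were below every control in each NVP-2 library, as were 21.2% of genes, and in each the libraries of experiment 2 were lower than those of experiment 1, so that the KLF5 ratio was −0.87 in experiment 1 and −3.19 in experiment 2. Of the 8 fits without 1 library, 3 called KLF5 (adjusted p of up to 0.0828), 4 called KLF6 (up to 0.0586) and all 8 called KLF4.

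KLF3 was at 14.7, 12.7, 6.37 and 3.78 T>C CPM in T3M-4 with NVP-2 against 33.4 to 37.5 T>C CPM (−1.89 ± 0.43, adjusted p = 0.00964). The remaining calls below the controls rested on few reads. KLF9 had 3 T>C reads in the 4 NVP-2 libraries together against 405 in the DMSO libraries, a rate of 5.18% of control (95% exact counting interval 1.06% to 15.3%). KLF2 had 10 against 1014, a rate of 6.9% (3.3% to 12.7%), and KLF11 27 against 2037, a rate of 9.28% (4.22% to 17.7%, counted in units of 3 reads). KLF7 lay below its controls in all 4 libraries, as did 21.2% of genes, but was not called (−1.07 ± 0.43, adjusted p = 0.0878).

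KLF10 differed from the others in T3M-4 and between the lines. It was at 121, 97.1, 57.0 and 40.1 T>C CPM with NVP-2 and at 114, 138, 276 and 270 T>C CPM with DMSO, so experiment 1 hardly separated (log2 ratio −0.21) and experiment 2 did (−2.49). The call (−1.34 ± 0.42, adjusted p = 0.0391) was held by 2 of 8 fits without 1 library. The NVP-2 effect on KLF10 was 2.72 ± 0.54 lower in T3M-4 than in AsPC-1 on the log2 scale (adjusted p = 0.0201), the single member of 9 called in that test, against 0.851% of genes, and without T3M-4 DMSO library 2.2 its adjusted p was 0.0539. KLF6 (−2.43 ± 0.67, adjusted p = 0.091) and KLF2 (−2.70 ± 0.93, adjusted p = 0.178) did not pass it. Batch and drug coincide in AsPC-1 but not in T3M-4, so this test between the lines also carries the AsPC-1 batch difference.

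Which members NVP-2 moved depended on the quantity read. In all reads of AsPC-1 all 8 members counted well enough in T>C reads were lower and called, against 11.8% of genes. KLF10, higher among T>C reads, was at 9.55, 6.26, 15.3 and 10.8 all-reads CPM with NVP-2 and 18.3 to 24.6 CPM with DMSO (−0.97 ± 0.24, adjusted p = 0.0269), and KLF6 was at 43.4 to 67.3 CPM against 70.7 to 139 CPM (−0.88 ± 0.23, adjusted p = 0.0295). KLF5 was at 5.77 to 7.02 CPM against 16.5 to 44.5 CPM (−2.10 ± 0.30, adjusted p = 0.00142). When T>C counts were scaled by all reads, which keeps the loss of new RNA in the value, all 8 members were lower, KLF10 by −1.68 and KLF6 by −2.67 on the log2 scale, beside −3.04 for the median gene.

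In all reads of T3M-4, 6 of the 10 members tested were called lower with NVP-2, against 5.16% of genes. KLF10 was at 4.77, 5.80, 3.34 and 2.81 CPM with NVP-2 and 22.0 to 40.4 CPM with DMSO, a log2 fold change of −2.93 ± 0.30 (adjusted p = 0.00124). KLF5 was at 90.4, 112, 78.2 and 76.9 CPM against 128 to 138 CPM, all below the controls, as held for 9.61% of genes. It was not called (−0.56 ± 0.16, adjusted p = 0.0936). KLF5's all-reads value was thus −2.10 in AsPC-1 and −0.56 in T3M-4, and the test of that difference between the lines (1.59 ± 0.35) did not call it (adjusted p = 0.155).

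**Figure D4:**
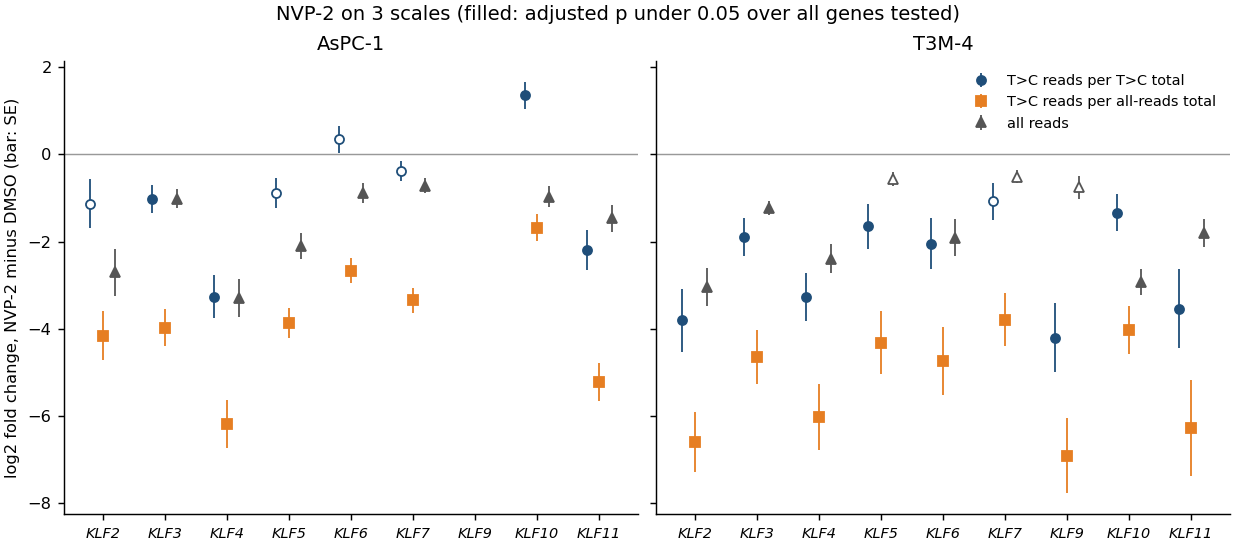
Log2 fold change of each KLF gene with NVP-2 on 3 scales in both lines, T>C reads, all reads, and T>C reads scaled by all reads. In AsPC-1 KLF10 goes from 1.36 to −0.97 and −1.68 and KLF6 from 0.35 to −0.88 and −2.67, while KLF4 and KLF11 are below 0 on each scale in both lines.

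With dTAG in AsPC-1 the share was lower for 7 of 8 members (limma on log2 odds, all but KLF2), against 37.7% of 12334 genes, and the median gene moved by −0.33 log2 odds. KLF11 went from 51.2% ± 2.88 (n = 10) to 39.9% ± 5.16 (n = 9), a change of −0.66 log2 odds (adjusted p = 0.000866), and KLF10 from 58.1% ± 3.92 to 49.6% ± 3.83 (−0.50, adjusted p = 0.0036). KLF5 went from 37.2% ± 4.2 to 32.4% ± 2.60 (−0.31, adjusted p = 0.0311). Once the median gene's change was subtracted, limma called 0 of the 8 members, against 0.6% of genes. dTAG library 3.1 is absent from these shares, since its all-reads column could not be used.

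In T3M-4 no member's share was called with dTAG (limma, 1 of 9 at an unadjusted p under 0.05), against 0.00737% of genes. That was KLF3, at 43.8%, 46.8%, 37.4% and 28.4% in dTAG libraries and 46.7% to 53.5% in NEG libraries (adjusted p = 0.643). With CB-6644 limma called 0 members in the 3 comparisons, against 0.00822% of genes in AsPC-1 at 4 h, 0% in T3M-4 and 0.00789% in AsPC-1 at 12 h. At an unadjusted p under 0.05 it found KLF2, KLF4, KLF7 and KLF10 in AsPC-1 after 4 h and 0 members in the other two comparisons. Lowest by adjusted p was KLF4 in AsPC-1 at 4 h, 42.3% ± 3.1 against 52.2% ± 2.35 (adjusted p = 0.0839). All 5 CB-6644 libraries were below all 5 controls, and how many genes were separated in this way was not counted. The median gene moved by −0.27 log2 odds in that comparison. Less that change, KLF4 was at −0.32 (limma, adjusted p = 0.577).

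With NVP-2 every member tested had a lower share in both lines, as did 93.7% of genes in AsPC-1 and 90.5% in T3M-4. In AsPC-1 the share of KLF10 was 36.5%, 31.3%, 41.9% and 39.9%, which is 59.4% of its DMSO mean, while that of the median gene was 1.68%. KLF2 kept 23.3% ± 2.63, KLF6 14% ± 2.53 and KLF5 12.5% ± 2.09. At the other end were KLF3 at 5.78% ± 3.05 and KLF11 at 3.86% ± 1.58. Relative to the median gene's change of −3.40 log2 odds, KLF10 (1.97), KLF2 (1.19), KLF5 (1.06) and KLF6 (0.99) were called less reduced and KLF11 (−1.33) more reduced, against 25.8% of genes called on that scale.

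In T3M-4 the KLF10 share was 55.2% and 44.6% in experiment 1 and 23.6% and 23.3% in experiment 2, and no other member kept more than the 8.06% ± 4.71 of KLF6. KLF5 was at 3.18% ± 2.56, beside a median gene at 2.18%. Relative to the median change of −3.58 log2 odds, KLF3 (−1.28), KLF4 (−2.11), KLF5 (−1.75), KLF9 (−3.25) and KLF11 (−3.89) were called more reduced, and KLF10 (0.082, adjusted p = 0.921) was not called. KLF5 was thus above the median gene's change in AsPC-1 and below it in T3M-4, a difference between the lines that was not tested.

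**Figure D5:**
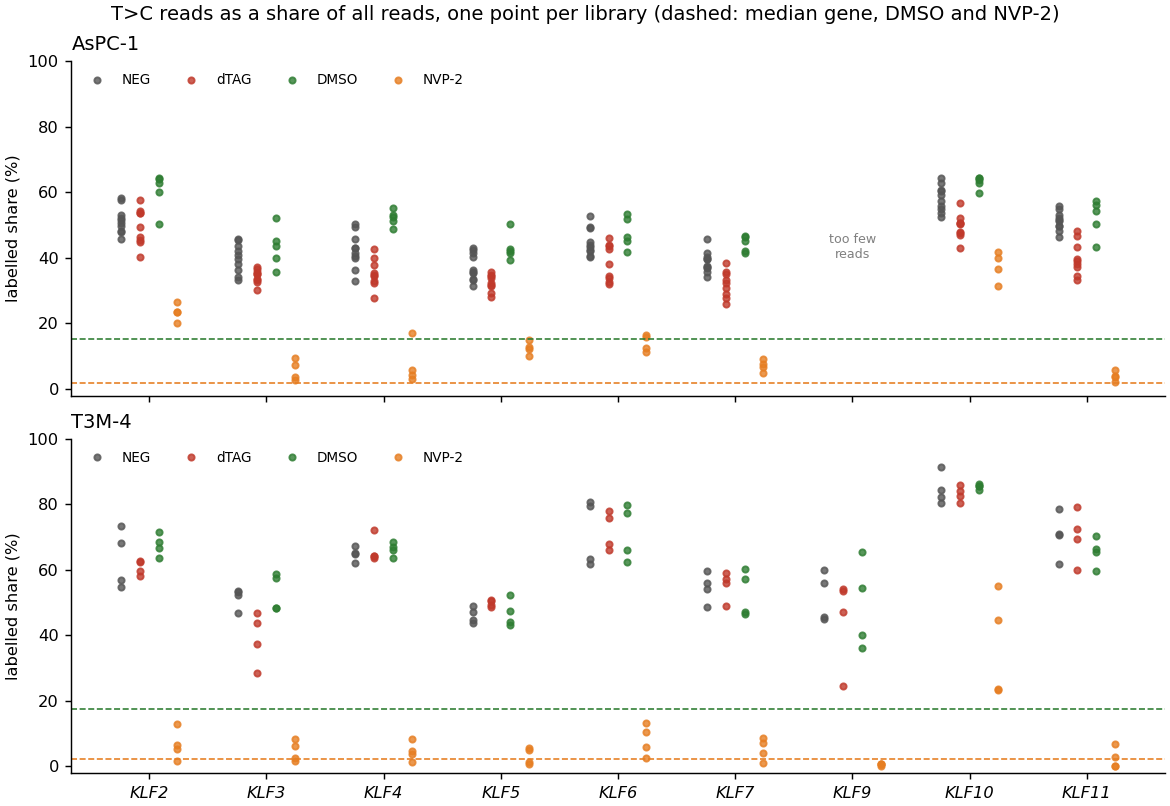
Labelled share in percent of each KLF gene per library for NEG, dTAG, DMSO and NVP-2 at 4 h in both lines, with the share of the median gene as a dashed line. KLF10 keeps 31.3% to 41.9% in AsPC-1 and 23.3% to 55.2% in T3M-4 with NVP-2, where the median gene is at 1.68% and 2.18%.

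Genes related to the family were read from lists of the other KLF and SP factors (16 of 17 in the tables), cofactors and ubiquitin ligases of KLF proteins (14) and upstream inducers of KLF genes (11). With edgeR no gene of these lists was called with dTAG or CB-6644 in T>C reads. At an unadjusted p under 0.05 they were SP2, CTBP2, NR3C1 and TGFBR2 with dTAG in AsPC-1, CTBP2, MEF2A, MEF2C and TGFBR2 with dTAG in T3M-4, HDAC1 and SP2 with CB-6644 in AsPC-1 at 4 h and 12 h, and EP300 and TGFBR2 with CB-6644 in T3M-4. With NVP-2 in AsPC-1, where 30.5% of all genes were called, 3 of 7 KLF and SP genes, 3 of 13 cofactors and ligases and 3 of 11 inducers were called, the last 2 shares being below that of all genes. Of the KLF and SP genes those that fell were SP2 (−1.70), SP3 (−1.21) and SP6, which had no T>C read in any NVP-2 library. Of the cofactors and ligases, HDAC1 (1.06) and WWP1 (0.92), a ubiquitin ligase that acts on KLF5 protein, rose and the corepressor gene CTBP2 (−0.80) fell. All these list values are relative to the other T>C reads of a library. In all reads 0 of the 14 cofactors and ligases were called higher with NVP-2 in AsPC-1, and 1 was called lower. Of the inducers, MAPK7 (0.566 ± 1.13 against 41.9 ± 14.5 T>C CPM), MEF2D (−1.22) and SMAD3 (−0.90) fell. MAPK7 encodes the ERK5 kinase that, through MEF2 factors, drives KLF2 and KLF4.

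In T3M-4 with NVP-2 the lists held 2 called of 8 KLF and SP genes, 2 of 13 cofactors and ligases and 2 of 11 inducers, each a smaller share than the 26.7% of all genes. SP6 (−4.73) and SP8 (−2.96) fell, and HDAC1 (2.97) and WWP1 (1.36) rose, as in AsPC-1. MAPK7 fell (4.21 ± 3.28 against 61.7 ± 21.2 T>C CPM) and SMAD2 rose (1.03). These values too are relative to the other T>C reads. In all reads of T3M-4, 0 cofactors and ligases and 0 inducers were called higher with NVP-2. There 0 cofactors and ligases and 1 inducer were called lower.

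Over the 12 group means of log2 T>C CPM, both lines scaled together, the genes whose pattern was most like that of KLF5 among 10540 genes were BCL7A (Pearson r 0.984), ELL2 (0.983) and DANCR (0.983). Within the family KLF4 was most alike (0.848), followed by KLF7 (0.414), KLF10 (0.371) and KLF3 (0.274), while KLF2 was at −0.215. The 12 points share 2 lines and several control groups, and the difference between the lines enters each value, so these are descriptions.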

How the data were processed

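The authors made 3′ end SLAM-seq libraries, aligned single-end reads to hg38 and counted them with slamdunk at default settings over GENCODE release 44 3′UTR exons. What they deposited are raw read counts, not normalized, 1 value per gene and library, in 1 table of T>C reads and 1 of all reads for each line. Columns were mapped to samples by name, and 18 empty columns were left out. The all-reads column of AsPC-1 dTAG 3.1 equals the T>C column of AsPC-1 DMSO 12 h library 2 and has fewer reads than the T>C column in 8047 genes, so it was not used. No spike-in and no library without 4-thiouridine was used here, so the level of T>C reads without labelling is unknown.

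Counts were tested with edgeR 4.0.16 (filterByExpr, TMM, quasi-likelihood) in R 4.3.3 over all genes of a table, with the groups of 1 comparison, Benjamini-Hochberg adjustment and a threshold of 0.05. CPM are TMM-scaled within a comparison, and differences between lines or times were tested as interaction terms. Labelled shares were tested with limma 3.58.1 on log2 odds (0.5 added to both counts, genes with a mean of 50 reads or more). Scripts were tested on simulated data. Alternatives were DESeq2 1.42.0, RLE size factors, no filter, scaling by all reads, summing per experiment, batches alone, other controls, blocks, and leaving libraries out. By rule all 10 genes were named in every comparison in which they were tested, in full where called in T>C reads and for KLF5. The members and the gene lists were chosen with earlier results of these data known.

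Libraries with the same replicate number deviated from their group means together, with a correlation over 0.1 in every pair, in the following comparisons. They were dTAG in AsPC-1 (0.264 to 0.544) and T3M-4 (0.167 to 0.453), CB-6644 in T3M-4 (0.163 to 0.435) and CB-6644 at 12 h (0.33 to 0.65). The same-numbered library was the best match in 5 of 10, 3 of 4, 1 of 4 and 2 of 4 of these pairs, in that order. A shared number therefore cannot be told apart from a shared experiment or culture set.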

Additional observations from a re-analysis of the deposited data

Results flagged for a closer look

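Of 202 groups of member values tested for a sample far from the others, 10 were marked (4.95%), which is what chance alone gives at about 1 in 20. In T>C CPM scaled over the libraries of both lines together, they were KLF11 in AsPC-1 CB-6644 4 h library 1.2 (59.79, others 45.16 to 48.33), KLF6 and KLF10 in AsPC-1 dTAG library 1.1 (874.4, others 280.5 to 564.7, and 143.2, others 53.43 to 88.98), and KLF11 in AsPC-1 NVP-2 library 2.2 (17.48, others 4.794 to 6.56). In T3M-4 they were KLF9 in CB-6644 library 2.1 (6.083, others 3.647 to 3.697), KLF2 in dTAG library 2.2 (7.209, others 3.531 to 3.855) and KLF11 in NEG library 2.2 (14.49, others 22.72 to 24.32). For the labelled share they were KLF5 in AsPC-1 DMSO 4 h library 1.3 (50.38%, others 39.43% to 42.54%), KLF4 in T3M-4 dTAG library 2.1 (72.03%, others 63.63% to 64.14%) and KLF9 in T3M-4 NVP-2 library 2.1, which held no T>C read of KLF9 (0%, others 0.6897% to 0.813%).

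The effect of NVP-2 on KLF10 differed between the lines by −2.722 on the log2 scale in T>C reads (edgeR interaction term, adjusted p = 0.0201). In all reads the same difference was −1.91 and was not called (adjusted p = 0.103). Both values also carry the AsPC-1 batch difference, since batch and drug coincide there.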

How the results depend on the processing

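The number of members called kept within 1.5 times of its value under RLE size factors, no filter on low counts and DESeq2 in every comparison. In T>C reads with dTAG in AsPC-1 (1 called), batch 2 alone and libraries summed per experiment, with or without a block, gave 0, scaling by all reads gave 3 (KLF3 −0.55, KLF5 0.36, KLF10 −0.69), and leaving out libraries gave 0 to 1. Over all genes batch 2 alone called 16, the sums 0, the sums with a block 223 and scaling by all reads 1171. The replicate block by full number gave 2 there (KLF5 and KLF10, among 757 genes called), and culture set with experiment as a block 3 (KLF4, KLF5 and KLF10, among 896). With dTAG in T3M-4 (2 called), all reads, batch 1 alone and summing per experiment gave 0, sums with a block kept KLF3 and KLF5, and leaving out 1 library 0 to 1. Over all genes all reads called 3, batch 1 alone 38, the sums 0 and the sums with a block 292. The test of the dTAG effect between lines (0 called) gave 1 with the replicate block (KLF3, among 81 genes called) and 0 to 1 without 1 library. With NVP-2 in AsPC-1 (4 called), all reads and scaling by all reads gave 8, summing per experiment 1 (KLF4), and leaving out 1 library 3 to 4. Over all genes all reads called 1667 of 14095, scaling 10651 of 11498 and summing 1024 of 12320. KLF10 reversed to −0.97 in all reads and −1.68 when scaled, and KLF6 to −0.88 and −2.67. With NVP-2 in T3M-4 (8 called) summing gave 0, and leaving out 1 library 5 to 8, the 5 without DMSO library 2.1 or 2.2. The sums called 0 of 13808 genes, so they show nothing about the members, while sums with a block called 2077. The NVP-2 difference between lines (1 called) gave 0 in all reads, where 1 of 16702 genes was called, and 0 to 2 without 1 library. The lines themselves gave 4 to 7 in T>C reads (6 called) and in all reads (8 called) when 1 library was left out, with 4 in all reads without AsPC-1 DMSO library 2.1 or 2.2. Shares less the median gene's change gave 0 of 7 calls with dTAG in AsPC-1, 5 of 8 with NVP-2 in AsPC-1 and 5 of 9 in T3M-4, against 0.6%, 25.8% and 23.9% of all genes. There KLF10 (1.97), KLF2 (1.19), KLF5 (1.06), KLF6 (0.99) and KLF7 (0.063) turned positive with NVP-2 in AsPC-1, as did KLF10 in T3M-4 (0.082) and KLF5 with dTAG in AsPC-1 (0.011). Leaving out libraries or an experiment gave 2 to 6 share calls with dTAG in AsPC-1 (7 called), 2 without experiment 1. With NVP-2 in T3M-4, where 3 of 4 same-numbered pairs passed 0.1 (correlations of 0.079 to 0.366), the replicate block dropped KLF10 (−1.35, adjusted p = 0.0781). Between the lines, where libraries share only a number, it dropped KLF10 and KLF11 in all reads and added KLF2 (−1.08 in all reads, −1.11 in T>C reads). The cause of these changes was not tested. Apart from the values given here and in the report, the block changed no other call of a member in the comparisons whose same-numbered pairs all passed 0.1.

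Over all genes, dTAG in AsPC-1 gave 281 calls with edgeR, 491 with DESeq2, 757 with the replicate block and 1171 when scaled by all reads, which moved the median gene by −0.234. In T3M-4 edgeR gave 112 calls and DESeq2 348. For CB-6644 edgeR gave 0 calls in each comparison, with 482, 569 and 473 genes at an unadjusted p under 0.05 (AsPC-1 4 h, T3M-4, AsPC-1 12 h), and DESeq2 gave 1, 7 and 26. KLF9 and KLF13 are limited by depth in AsPC-1.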
